A study of Mus musculus with 8 samples.

Results

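The genes described here are members of the endoplasmic reticulum folding machinery, chosen by name with earlier results of these data known. Followed over 8 arrays of mouse liver were Hspa5, Hsp90b1, Xbp1, Dnajb9, Dnajc3, Dnajb11, Pdia4, Pdia6, Calr and Hyou1. They are 10 of the 19321 genes named on the array and are measured by 11 probes, of which the probe with the highest mean over the 8 arrays stands for its gene. All 10 were listed with a value on every array and entered the tests, which covered 16800 genes. Xbp1 is not itself a chaperone but a transcription factor of the response that switches such genes on, so the label "chaperones and folding enzymes" holds for the other 9.

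All mice, those on normal diet included, had been given DMBA, a chemical carcinogen, when 4 to 5 days old, and were then kept on their diet for 30 weeks. The 3 groups were tumour tissue of livers of mice on high fat diet (3 arrays, mice 117, 186 and 1), non-tumour tissue of the livers of those same 3 mice (3 arrays), and liver of mice on normal diet (2 arrays, mice 117 and 120). The number 117 on normal diet was taken to be another animal, since its diet differs. The labels give neither strain nor sex, and no group went without DMBA. Total RNA of whole tissue pieces was amplified and hybridised in 1 colour (Cy5). Hepatocyte markers were listed on every array for 12 of 12 genes, and Alb, the serum albumin gene, averaged 47269 ± 1825 in tumours and 46977 ± 1741 in non-tumour tissue (SD, n = 3 each), against a mean of 54610 in normal diet livers. Levels are given as the deposited normalised intensity, on which the median listed probe of each array is 25, and they are compared for 1 probe between arrays and not between genes.

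Proteins made for secretion or for membranes enter the endoplasmic reticulum unfolded. There, chaperones of the Hsp70 and Hsp90 families hold them, lectins such as calreticulin read their sugars, and protein disulphide isomerases set their disulphide bonds. When unfolded protein builds up, the sensors IRE1, PERK and ATF6 start the unfolded protein response: IRE1 splices Xbp1 mRNA, PERK slows translation and favours ATF4, and ATF6 is cut to release a transcription factor. Hepatocytes secrete most plasma proteins and are rich in this machinery. The arrays measure total mRNA, so neither Xbp1 splicing nor cleavage of ATF6 was read here.

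ATF6, together with NF-Y, is known to act on the endoplasmic reticulum stress element, which is CCAAT and CCACG with any 9 bases between them. Both strands of the RefSeq promoter windows of GRCm38.p6, 250 bases before to 50 after each gene's start, were searched for these letters. They were found in 5 of the 9 member windows in the table (Hspa5, Hsp90b1, Dnajc3, Pdia6 and Calr), and in 39 of all 32851 windows (0.119%). The matches are shown because they are the sequence feature these 5 genes share; capitals mark the CCAAT and CCACG ends.
Hspa5, chr2:34772025-34772043, gene strand: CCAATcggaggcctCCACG
Hsp90b1, chr10:86705638-86705656, gene strand: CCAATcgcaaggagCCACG
Hsp90b1, chr10:86705533-86705551, opposite strand: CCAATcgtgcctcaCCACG
Dnajc3, chr14:118937827-118937845, gene strand: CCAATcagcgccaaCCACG
Pdia6, chr12:17266491-17266509, gene strand: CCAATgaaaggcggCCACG
Calr, chr8:84847075-84847093, opposite strand: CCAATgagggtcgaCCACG

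The shorter element II (ATTGG and CCACG with any base between them), to which NF-Y, ATF6 and XBP1 are known to bind, was found in 1 member window, that of Dnajb11, and in 12 of all windows (0.0365%). Its first base is base 7 after the start, inside the transcribed part.
Dnajb11, chr16:22857852-22857862, gene strand: ATTGGcCCACG

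The XBP1 and ATF6 motif TGACGTGG was in no member window, and in 222 of all windows (0.676%). These matches are letters in a window and no measure of binding, and a window without them says nothing of the factor. The 250 bases before the start of Hspa5, the member with the largest log2 fold change in tumour over non-tumour tissue, are printed to show the element in its place, with the same letters in capitals.
Hspa5, chr2:34771840-34772089, gene strand, GRCm38.p6: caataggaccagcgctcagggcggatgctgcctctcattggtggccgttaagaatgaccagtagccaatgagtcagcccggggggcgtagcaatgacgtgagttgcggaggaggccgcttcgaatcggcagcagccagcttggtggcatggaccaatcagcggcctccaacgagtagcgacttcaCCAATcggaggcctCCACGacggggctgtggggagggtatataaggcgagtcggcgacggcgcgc

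**Figure D1:**
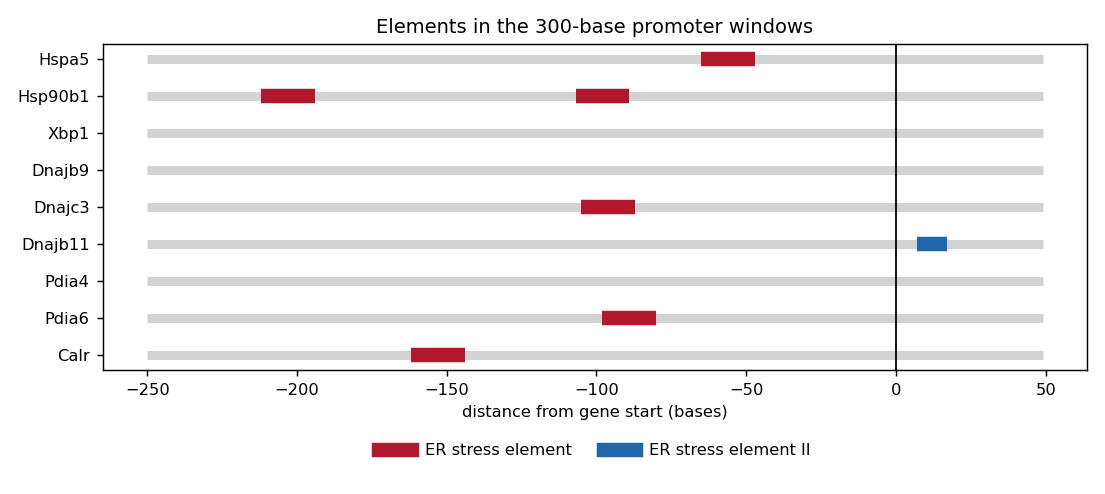
Position of the 2 endoplasmic reticulum stress elements in the promoter windows of 9 members, in bases from the gene's start; grey bars are the windows (250 bases before to 50 after), red marks the element with 9 bases between its ends and blue marks element II. The red marks lie before the start in 5 members, with a pair in Hsp90b1, and the blue mark of Dnajb11 lies after it.

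Tumour tissue and non-tumour tissue of the same livers were compared first. Of the 10 members, 8 were higher in tumours and none was lower, where 12.0% of all 16800 genes tested were higher (limma, Benjamini-Hochberg adjusted p below 0.05 over all genes; 25.4% changed in either direction). The members' median log2 fold change was 0.67, and that of all genes tested was -0.01. Since the members were chosen with earlier results of these data known, setting them against all genes is a description and no test. Hspa5, Pdia6 and Xbp1 more than doubled on the scale of the test, while Dnajc3 and Hyou1 did not pass. With the deposited values in place of the renormalised ones 5 members passed, and when each spot was corrected by its own local background 1 did, Hspa5. In whole tissue fewer cells of a type and less RNA per cell cannot be told apart.

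Hspa5 encodes BiP, the Hsp70 chaperone of the endoplasmic reticulum lumen, which also holds the 3 sensors inactive. Its intensity was 8679.7, 7042.0 and 8242.5 in tumours of mice 117, 186 and 1, against 3915.4, 3751.4 and 3210.9 in their non-tumour tissue and 5220.3 and 4519.1 in normal diet livers. Every tumour lay above every other array, and on the deposited scale the non-tumour arrays lay lowest. On the scale of the test normal diet 120 (log2 12.0204) lay below non-tumour 117 (12.0845) and non-tumour 186 (12.0403). The log2 fold change in tumour over non-tumour tissue was 1.45 ± 0.11 (SE; adjusted p = 0.000599, limma), a 2.73-fold rise with a 95% interval of 2.27 to 3.28. Within the 3 mice the ratio of deposited intensities was 2.22, 1.88 and 2.57.

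Hsp90b1 encodes GRP94, the Hsp90 chaperone of the same compartment. Its intensity was 6032.1, 5280.6 and 5957.9 in tumours, against 4269.0, 3730.9 and 4403.4 in non-tumour tissue and 5765.0 and 4618.9 in normal diet livers. Tumours stood above all non-tumour arrays but overlapped the normal diet livers on this scale. The rise over non-tumour tissue was 0.76 ± 0.10 (log2, SE; adjusted p = 0.00316, limma), smaller than that of Hspa5 in each of the 3 mice.

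Among the protein disulphide isomerases, Pdia6 (P5) had 3850.4, 3311.5 and 5418.6 in tumours, against 1866.7, 2001.9 and 2268.7 in non-tumour tissue and 2309.8 and 1917.0 in normal diet livers. All 3 tumours were above all 5 other arrays, and the tumour of mouse 1 was the highest. Its log2 fold change over non-tumour tissue was 1.25 ± 0.14 (SE; adjusted p = 0.00161, limma). Pdia4 (ERp72) had 442.7, 491.2 and 516.8 in tumours, against 331.6, 270.7 and 429.0 in non-tumour tissue and 417.4 and 331.7 in normal diet livers. The groups were again apart, but the highest non-tumour array, that of mouse 1, came close to the lowest tumour. Pdia4 rose by 0.65 ± 0.13 on the log2 scale (SE; adjusted p = 0.0139, limma), but with the deposited values in place of the renormalised ones it did not pass (adjusted p = 0.0894).

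Calr encodes calreticulin, a calcium-binding lectin chaperone. It had 223.2, 231.6 and 231.7 in tumours, against 181.8, 199.9 and 175.8 in non-tumour tissue and 280.1 and 201.9 in normal diet livers. Tumours were above non-tumour tissue in each mouse but lay inside the range of the normal diet livers on the deposited scale. On the scale of the test every tumour (log2 8.3091 to 8.4166) lay above both normal diet livers (8.3062 and 7.9861), by little for the higher one. The rise over non-tumour tissue was 0.38 ± 0.10 (log2, SE; adjusted p = 0.0290, limma). This call was lost when the array of non-tumour 117 (adjusted p = 0.0827), tumour 117 (0.0848), tumour 186 (0.0709) or non-tumour 1 (0.0892) was left out, and with scaling to the median (0.117) or deposited values (0.209).

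The J-domain proteins bring clients to BiP or drive its ATP cycle. Dnajb11 (ERdj3) had 503.1, 498.6 and 509.4 in tumours, against 365.8, 322.1 and 483.9 in non-tumour tissue and 419.2 and 392.7 in normal diet livers. The 3 tumours were nearly alike, with the non-tumour array of mouse 1 just under them. The log2 fold change was 0.55 ± 0.11 (SE; adjusted p = 0.0119, limma), but with mouse number as a block it did not pass (adjusted p = 0.0556), and with deposited values it was 0.39 (adjusted p = 0.136). Dnajb9 (ERdj4), which is known to recruit BiP to IRE1, had 253.6, 173.8 and 224.8 in tumours, against 160.4, 122.9 and 108.5 in non-tumour tissue and 127.3 and 195.7 in normal diet livers. Tumours were above non-tumour tissue without overlap, and on the deposited scale the normal diet livers spread across both. On the scale of the test every Dnajb9 tumour value (log2 8.0173 to 8.5676) lay above both normal diet livers (7.455 and 7.9556). Its rise of 0.69 ± 0.20 (log2, SE) was just past the threshold (adjusted p = 0.0477, limma). Leaving out the array of non-tumour 117, tumour 117, non-tumour 186, non-tumour 1 or tumour 1 ended that call, with adjusted p between 0.0536 and 0.136, as did scaling to the median (0.0606) and testing without a filter (0.0620).

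Dnajc3 (p58IPK), an ERdj protein also known as an inhibitor of PERK, is the member with a pair of probes, and they disagreed. The brighter one had 548.2, 448.0 and 760.3 in tumours, against 482.6, 441.8 and 752.6 in non-tumour tissue and 635.0 and 497.3 in normal diet livers. Mouse 1 was high in both tissues, and the groups overlapped with or without it. The log2 fold change was 0.31 ± 0.22 (SE; adjusted p = 0.360, limma), and with mouse number as a block it passed (adjusted p = 0.0458). The dimmer probe had 619.3, 431.4 and 718.5 in tumours, against 362.9, 374.8 and 380.8 in non-tumour tissue and 423.6 and 412.7 in normal diet livers. There every tumour was above every other array, and the log2 fold change was 0.81 ± 0.16 (SE; adjusted p = 0.0117, limma). With that probe 9 of 10 members would count as higher.

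Hyou1 (GRP170), a large Hsp70-like protein that exchanges the nucleotide of BiP, was the dimmest member, with every array below the median listed probe. It had 16.3, 13.9 and 17.5 in tumours, against 11.0, 12.9 and 16.9 in non-tumour tissue and 19.1 and 17.8 in normal diet livers. Tumour and non-tumour arrays overlapped. The log2 fold change of 0.06 (95% interval -0.06 to 0.17; adjusted p = 0.461, limma) is compressed by the offset of 50 added to all signals. With deposited values it was 0.24 (adjusted p = 0.403).

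Xbp1, whose spliced mRNA encodes a transcription factor for chaperone, degradation and secretory pathway genes, had 1678.1, 1874.5 and 2163.8 in tumours. Its non-tumour values were 952.0, 896.1 and 1083.8, and normal diet livers had 1680.2 and 1385.2. Tumours were above non-tumour tissue in each mouse, with ratios of 1.76 in mouse 117 and 2.09 in mouse 186. The log2 fold change was 1.22 ± 0.08 (SE; adjusted p = 0.000417, limma). By mouse, on the scale of the test, 10, 9 and 10 of the 10 members were higher in the tumour of mice 117, 186 and 1. Hyou1 was the exception in mouse 186, and its difference was near 0 in mouse 1 as well (0.03, log2). The share of all genes that were higher in each mouse was not counted.

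**Figure D2:**
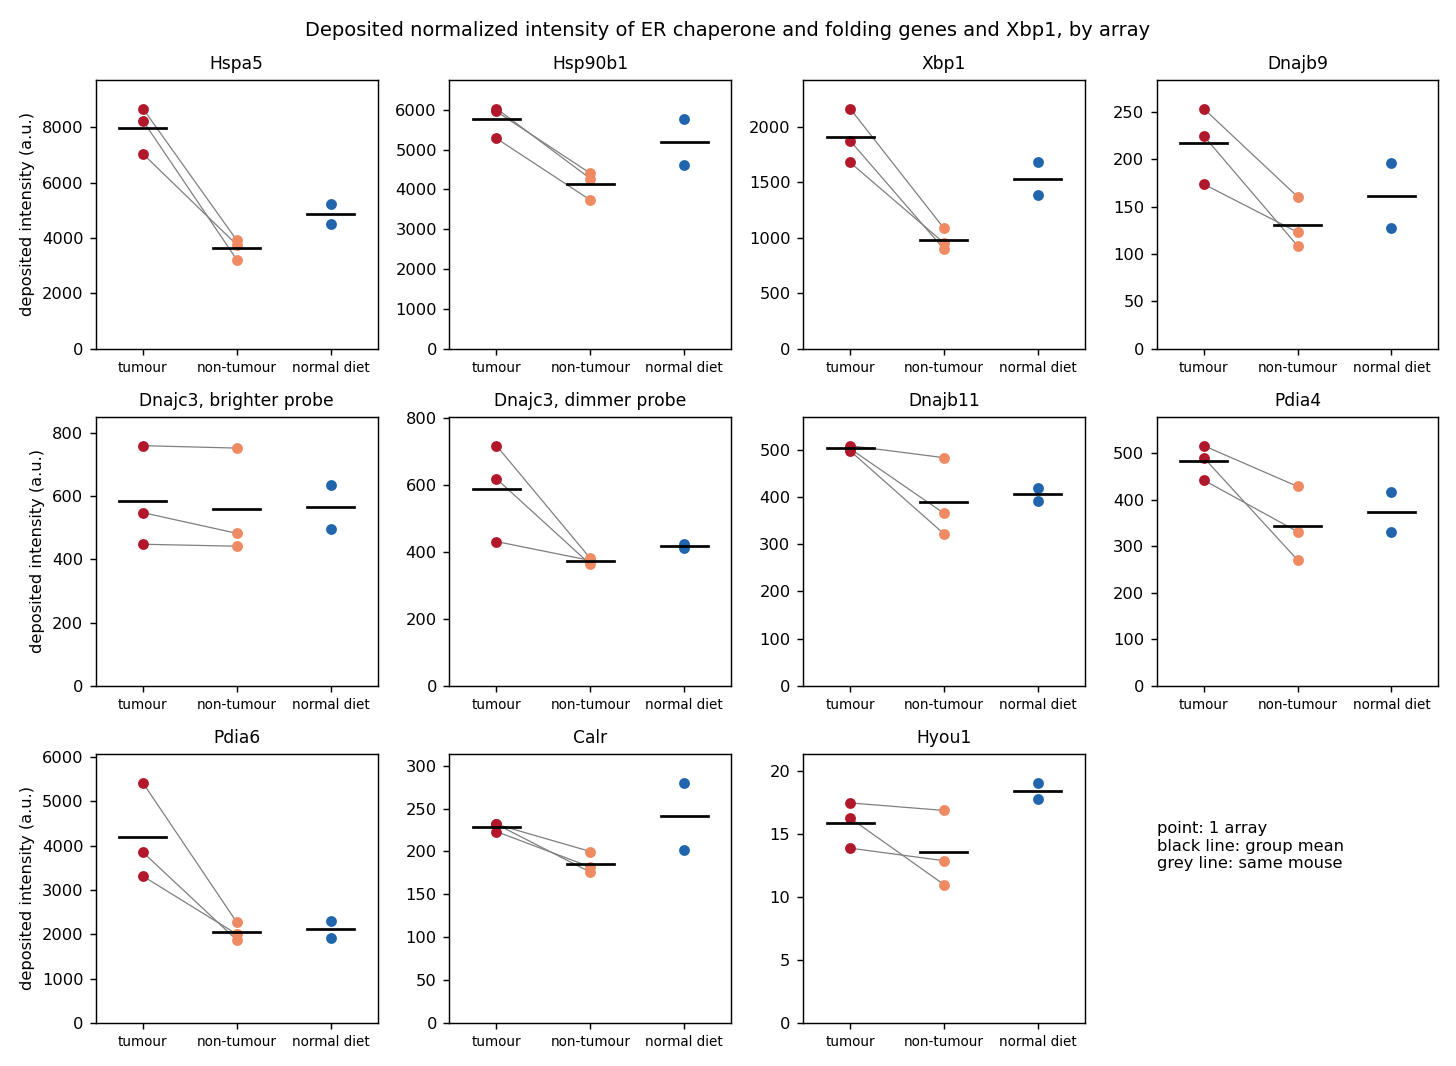
Deposited normalised intensity (arbitrary units, linear axis from 0) of the 10 members, with both probes of Dnajc3, on each of the 8 arrays; points are arrays, black lines are group means, grey lines join tissues of the same mouse, and the groups run tumour, non-tumour, normal diet from left to right. Hspa5, Pdia6, Pdia4 and Dnajb11 tumours stand above all other arrays, Hsp90b1, Xbp1, Dnajb9 and Calr tumours stand above non-tumour tissue but not above both normal diet livers, and Dnajc3 (brighter probe) and Hyou1 overlap between tumour and non-tumour tissue.

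High fat tumours were next set against normal diet livers, which differ from them in both diet and tissue. Here 6 of 10 members were higher and none was lower, where 12.9% of all genes were higher (27.9% changed in either direction), and the members' median log2 fold change was 0.65. Pdia6 rose by 1.48 ± 0.15 (log2, SE; adjusted p = 0.00127, limma) and Hspa5 by 1.28 ± 0.12 (adjusted p = 0.00100). Xbp1 rose by 0.81 ± 0.09 (adjusted p = 0.00156), Pdia4 by 0.68 ± 0.15 (adjusted p = 0.0172), Hsp90b1 by 0.66 ± 0.11 (adjusted p = 0.00704) and Dnajb11 by 0.63 ± 0.12 (adjusted p = 0.00993). Dnajb9 (0.58, adjusted p = 0.103), Dnajc3 (0.41, adjusted p = 0.264), Calr (0.23, adjusted p = 0.161) and Hyou1 (-0.05, adjusted p = 0.567) did not pass. The dimmer Dnajc3 probe did, at 0.80 (adjusted p = 0.0170).

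With deposited values, which place the median of all genes 0.19 lower on the log2 scale in tumours than in normal diet livers, only Hspa5 and Pdia6 of those 6 passed. The others then had adjusted p of 0.518 (Hsp90b1), 0.217 (Xbp1), 0.243 (Dnajb11) and 0.222 (Pdia4). With 1 normal diet array left out, Dnajb11 was lost without either array (adjusted p = 0.0571 without 117 and 0.0667 without 120) and Pdia4 without 120 (adjusted p = 0.113). Both comparisons share the 3 tumour arrays.

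**Figure D3:**
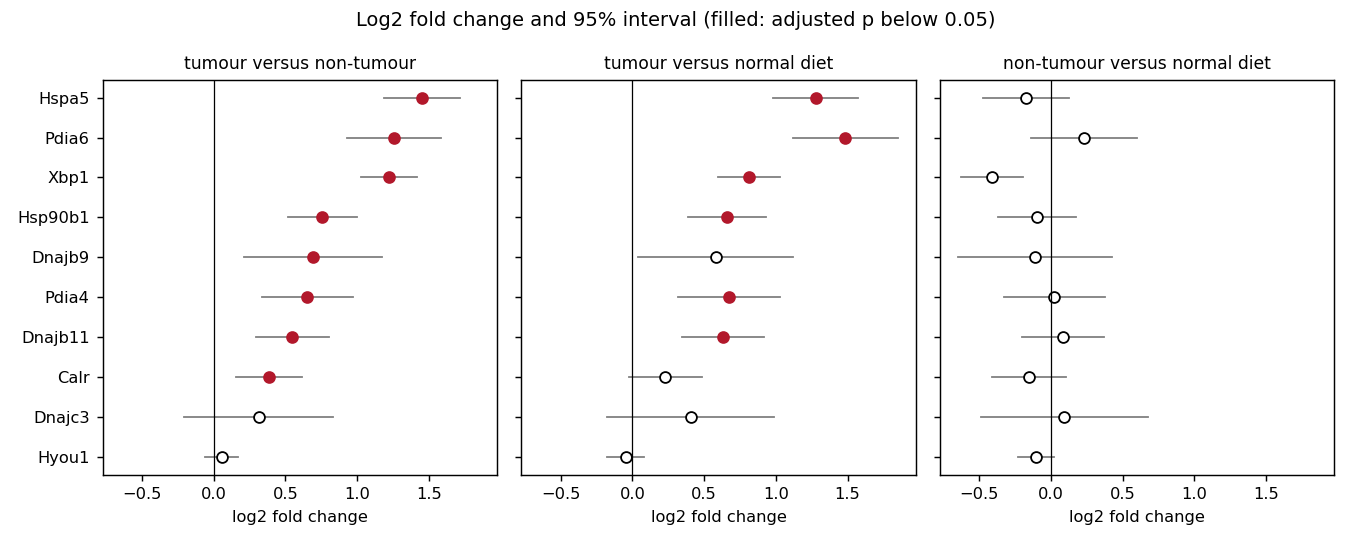
Log2 fold change of each member with its 95% interval (limma, all 8 arrays) in tumour over non-tumour tissue, tumour over normal diet liver and non-tumour tissue over normal diet liver, from left to right; filled points passed the test (adjusted p below 0.05) and the vertical line marks no difference. In the first panel all 10 estimates lie above 0 and those of Dnajc3 and Hyou1 have intervals that include it, and in the third panel the interval of Xbp1 is the one that lies wholly below 0.

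Non-tumour tissue on high fat diet was compared with normal diet liver to describe differences outside the tumour. That tissue came only from tumour-bearing livers, so diet and nearness to a tumour cannot be told apart here. None of the 10 members passed (limma, adjusted p below 0.05), where 3.83% of all genes changed (1.81% higher and 2.02% lower). Before adjustment 1 member, Xbp1, and 3362 of 16800 genes were below 0.05. The members' log2 fold changes ranged on both sides of 0, with 4 positive, 6 negative and a median of -0.10. Xbp1 had the largest, at -0.41 ± 0.09 (SE; 95% interval -0.62 to -0.19; adjusted p = 0.0649), with adjusted p between 0.0555 and 0.999 over the alternatives tried. For Hspa5 the difference was -0.17 (95% interval -0.47 to 0.12; adjusted p = 0.509), although its 3 deposited non-tumour values all lay below both normal diet values. The same held for the deposited values of Hsp90b1, Xbp1, Calr and Hyou1 and of the dimmer Dnajc3 probe. How many of all genes did so was not counted. On the deposited scale the median of all genes is itself 0.12 lower (log2) in non-tumour tissue than in normal diet liver.

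Pdia6 had 0.23 (95% interval -0.14 to 0.60) and Calr -0.15 (95% interval -0.41 to 0.10), so differences of that size in either direction were not resolved with 3 arrays against 2. That the members differed in tumour over non-tumour tissue and not in this comparison was not tested as a difference, and both share the non-tumour arrays.

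Other genes of the secretory pathway were described from lists chosen with earlier results of these data known. Of 27 other folding genes tested, 15 were higher in tumour than in non-tumour tissue and 1 was lower, with a median log2 fold change of 0.46, against 12.0% of all genes tested higher, 13.4% lower and a median of -0.01. With mouse number as a block 14 of these folding genes were higher and none was lower. Leaving out 1 array gave 12 to 16 higher and 0 or 1 lower. When each spot was corrected by its own local background, 126 of all genes changed. No more than 1 gene was then higher in any of the 9 lists described here. Fkbp11, a prolyl isomerase of the endoplasmic reticulum, had 415 ± 45.6 in tumours, against 70.1 ± 0.643 in non-tumour tissue (SD, n = 3 each), a log2 fold change of 2.14 ± 0.05 (SE; adjusted p = 1.58e-05, limma). That was more than any of the 10 members. Sdf2l1, a BiP complex component, rose by 1.35 ± 0.21 (adjusted p = 0.00543) and Manf, a secreted stress-induced protein, by 1.33 ± 0.09 (adjusted p = 0.000417). Creld2, another stress-induced protein, rose by 1.17 ± 0.15 (adjusted p = 0.00305).

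The machinery that moves chains into the endoplasmic reticulum and trims them showed the same direction. In the translocon and signal peptidase list 18 of 24 genes were higher and none was lower, with a median of 0.63, and 10 were higher with deposited values. Ssr4 and Ssr2, subunits of the translocon-associated complex, rose by 1.13 ± 0.13 (log2, SE; adjusted p = 0.00176, limma) and 1.10 ± 0.11 (adjusted p = 0.00116), and Sec61a1, the channel itself, by 1.09 ± 0.12 (adjusted p = 0.00171). Of 19 N-glycosylation genes 11 were higher and 1 lower, with a median of 0.70. Ostc, a subunit of the oligosaccharyltransferase, had 1300.3 ± 148 in tumours, against 541 ± 21.8 in non-tumour tissue, and rose by 1.46 ± 0.07 (adjusted p = 0.000192).

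Transport from the endoplasmic reticulum to the Golgi had 15 of 30 genes higher and none lower, with a median of 0.35, and 5 higher with deposited values or 9 with scaling to the median. Tmed9, a cargo receptor, rose by 1.05 ± 0.12 (log2, SE; adjusted p = 0.00165, limma) and Copb2, a coatomer subunit, by 0.88 ± 0.11 (adjusted p = 0.00260). Endoplasmic reticulum-associated degradation had 6 of 24 higher and 1 lower, with a median of 0.15. That count was 3 without the array of non-tumour 117 or of non-tumour 186, and 1 with deposited values. Selenos, part of the complex that pulls misfolded protein out, rose by 0.90 ± 0.10 (adjusted p = 0.00173).

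Among 18 sensors and transcription factors 4 were higher and 1 was lower, with a median of 0.08. The count of higher genes was 2 without the array of non-tumour 1 and 2 with deposited values. Atf4, the factor whose translation PERK favours, had 633 ± 102 in tumours, against 341 ± 41.6 in non-tumour tissue (SD, n = 3 each), and 854 ± 1.84 in normal diet livers (n = 2). It was 1.03 ± 0.09 higher (log2, SE) in tumour than in non-tumour tissue (adjusted p = 0.000887, limma) and lower in non-tumour tissue than in normal diet liver (log2 fold change -1.02, adjusted p = 0.00758). The second call was lost without either normal diet array (adjusted p up to 0.0707). Ddit3 (CHOP) had 483 ± 47.2 in tumours, against 199 ± 44.2 in non-tumour tissue, and rose by 1.30 ± 0.16 (adjusted p = 0.00232). The sensors Eif2ak3 (PERK; 0.50, adjusted p = 0.0557), Ern1 (IRE1; 0.12, adjusted p = 0.110) and Atf6 (0.11, adjusted p = 0.352) did not pass. Eif2ak3 did pass with an offset of 16 (adjusted p = 0.0403) and with limma's trend and robust options (0.0237), and in tumours over normal diet liver (0.93 ± 0.17, SE; adjusted p = 0.00873, limma). That last call was lost without the array of normal diet 117 (adjusted p = 0.0667).

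PERK arm targets had 7 of 13 genes higher and 2 lower, with a median of 0.75, and include Ddit3. With an offset of 16 the median was 1.01, with 8 higher and 2 lower. The count of lower genes was 0 without the array of non-tumour 1 or of non-tumour 186, 1 without that of non-tumour 117 or of tumour 117, and 1 with mouse number as a block. Ddit4, a stress-induced inhibitor of mTORC1 signalling, rose by 1.60 ± 0.26 (log2, SE; adjusted p = 0.00681, limma) and Trib3, a pseudokinase target of CHOP, by 1.10 ± 0.07 (adjusted p = 0.000392). Chac1, which breaks down glutathione, was higher in non-tumour tissue than in normal diet liver, at 1.25 ± 0.12 (adjusted p = 0.00609), a call lost without the array of normal diet 120 (adjusted p = 0.0515). Chac1 was also higher in tumours than in normal diet liver (adjusted p = 0.00509, limma). It differed between tumour and non-tumour tissue too (adjusted p = 0.0178, limma). That call was lost with mouse number as a block (0.0535) and without non-tumour 186 (0.0591) or non-tumour 1 (0.0604). Chaperones outside the endoplasmic reticulum had other counts. Of 23 cytosolic chaperones 4 were higher and 5 lower in tumours, with a median of -0.05, and leaving out 1 array gave between 1 higher (without tumour 117, non-tumour 117 or non-tumour 1) and 6 higher (without non-tumour 186). With deposited values 0 were higher, with scaling to the median 1, and with mouse number as a block 3 were higher and 3 lower. Of 10 mitochondrial chaperones none was higher and 1, Hspd1 (HSP60), was lower, at -0.50 (adjusted p = 0.00420), with a list median of -0.18. The count of lower genes was 2 without the array of non-tumour 1, 3 without that of tumour 186, 2 with mouse number as a block, 3 with deposited values, and 4 with scaling to the median.

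Hspb1, a small cytosolic heat shock protein, had 307 ± 140 in tumours, against 1304 ± 157 in non-tumour tissue (SD, n = 3 each) and 387 ± 20.8 in normal diet livers (n = 2), so the non-tumour arrays stood apart. In tumour over non-tumour tissue it had a log2 fold change of -1.82 ± 0.31 (SE; adjusted p = 0.00737, limma). In tumours over normal diet liver it had -0.06 (95% interval -0.88 to 0.77; adjusted p = 0.928). In non-tumour tissue over normal diet liver it had 1.76 ± 0.34 (adjusted p = 0.0469), a call lost without any 1 array of those 2 groups (adjusted p up to 0.239). In that comparison Ppib (cyclophilin B) fell by 0.50 on the log2 scale (adjusted p = 0.0123) and Prdx4, a peroxiredoxin of the endoplasmic reticulum, fell by 0.61 (adjusted p = 0.0483), the 2 of 27 other folding genes that passed there. Neither call held without either normal diet array (adjusted p up to 0.0890 for Ppib and 0.253 for Prdx4). No gene passed there in the translocon, degradation or Golgi transport lists, and 1 of 19, Pgm3 of the sugar nucleotide pathway, in the N-glycosylation list (0.66, adjusted p = 0.0412, and up to 0.224 with 1 array left out). The stress element with 9 bases between its ends was in 3 of 23 windows of other folding genes (Canx, Creld2 and Ero1b), 2 of 19 of the degradation list (Derl3 and Syvn1), 1 of 17 of the N-glycosylation list (Alg12), and in none of the windows of the other 6 lists.

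**Figure D4:**
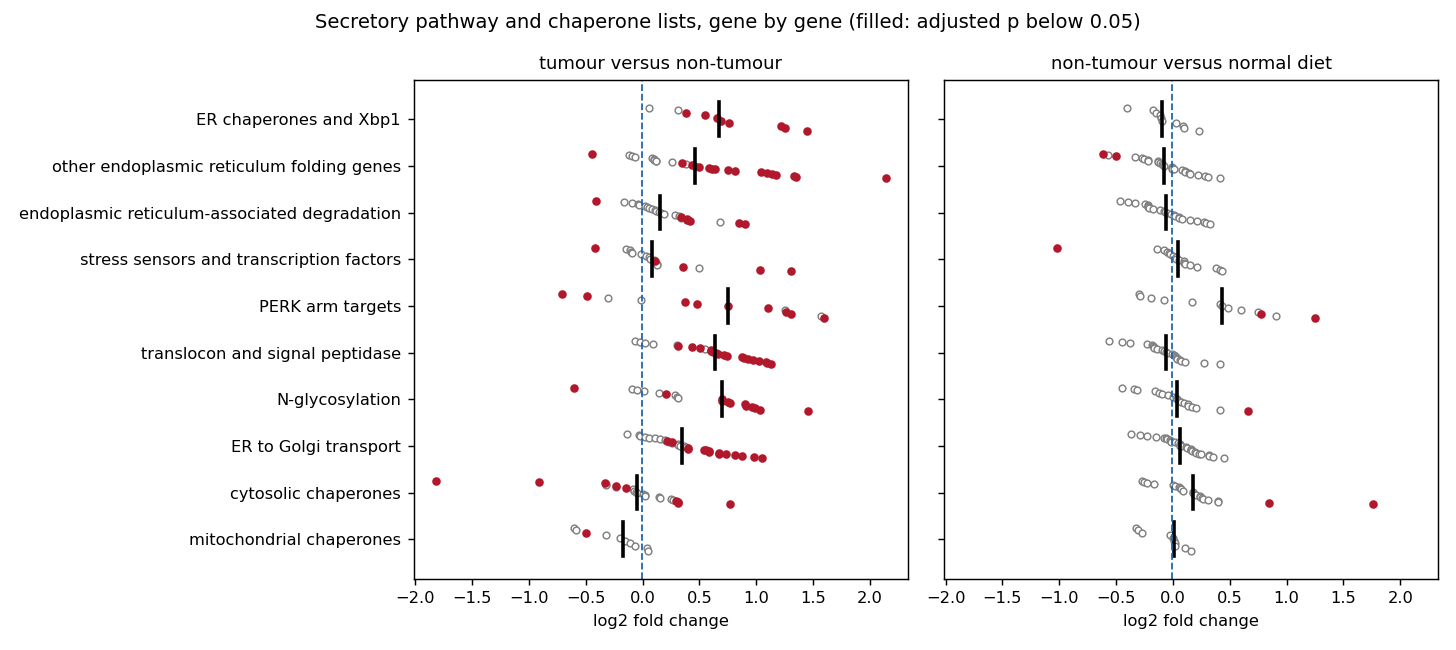
Log2 fold change of each gene of the members' list and of 9 lists of other genes, in tumour over non-tumour tissue (left) and in non-tumour tissue over normal diet liver (right); points are genes (filled where adjusted p was below 0.05), black bars are list medians and the dashed line is the median of all genes tested. On the left the medians of the members (0.67), translocon (0.63), N-glycosylation (0.70) and PERK arm (0.75) lists lie well above the dashed line, and those of the cytosolic (-0.05) and mitochondrial (-0.18) chaperone lists lie below it.

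Markers of other cell types were summed over the same arrays, since plasma cells and acinar cells also carry much of this machinery. Plasma and B cell markers summed to between 184 and 353 in tumours, against 233 to 340 in non-tumour tissue and 298 to 378 in normal diet livers. None of the 7 tested passed (limma). The 12 hepatocyte markers summed to between 247566 and 275252 in tumours, against 234527 to 253995 in non-tumour tissue and 294010 to 301869 in normal diet livers. Single hepatocyte markers went both ways, with 4 higher and 2 lower in tumour than in non-tumour tissue. Against normal diet liver 3 were higher and 3 lower in tumours. Pancreatic acinar markers summed to between 399 and 660 in tumours, against 153 to 164 in non-tumour tissue and 143 to 155 in normal diet livers. Of them 2 of 6 tested were higher, Cela1 (413 ± 124 in tumours, against 103 ± 10.5 in non-tumour tissue) and Cela2a, while Cpa1 was listed on no array.

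Cholangiocyte markers summed to between 2818 and 5348 in tumours, against 489 to 703 in non-tumour tissue and 593 to 657 in normal diet livers. Tspan8 alone had a mean of 3502 in tumours, while Krt19 (11.5 ± 3.71 in tumours, 15.9 ± 1.78 in non-tumour tissue) and Krt7 (16.1 ± 4.58 in tumours, 16.8 ± 0.961 in non-tumour tissue) were below the median listed probe. Of 10 tested, 2 were higher and 1 lower. Kupffer cell and macrophage markers summed to between 1594 and 2439 in tumours, against 2660 to 3313 in non-tumour tissue. Their sums in normal diet livers were 1802.9 to 2429.5, which overlapped the tumours. In tumour over non-tumour tissue 0 of 12 were higher and 2 lower. Stellate cell sums (1457 to 2409 in tumours, 1881 to 2584 in non-tumour tissue) and endothelial sums (932 to 1401 in tumours, 1098 to 1270 in non-tumour tissue) overlapped between these tissues. In normal diet livers the stellate cell sums were 1276 to 1300, below both tissues, and the endothelial sums were 1211 to 1477. The part of acinar, cholangiocyte and macrophage RNA in the members' differences was not tested.

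The members varied together over the 8 arrays to different degrees, mostly as tumour arrays against the others. Their mean standardised log2 value was 0.66 to 1.13 on tumour arrays. It was -0.85 to -0.43 on non-tumour arrays and -0.61 and -0.21 on normal diet arrays, which overlapped. Each member's log2 values were compared with the mean standardised log2 value of the other 9. Xbp1 (Pearson r = 0.953), Hsp90b1 (0.952), Pdia6 (0.935), Hspa5 (0.929), Pdia4 (0.913) and Dnajb11 (0.902) followed the others closely over the 8 arrays. Calr (0.758), Dnajb9 (0.717) and Dnajc3 (0.654) did so less, and Hyou1 had 0.242.

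Outside the 10, the genes whose log2 values had the highest r with the members' mean over the 8 arrays were Pkhd1 (0.993), Iars (0.993), Tspan9 (0.985), Shc1 (0.984), Cacna1e (0.984), Hgfac (0.982), Rrbp1 (0.981), Uggt1 (0.980), Atpaf2 (0.980) and Manf (0.980). Of these, Uggt1, the enzyme that marks misfolded glycoproteins for another round with calreticulin, and Rrbp1, a ribosome-binding membrane protein of the rough endoplasmic reticulum, belong to the same compartment, as does Manf. Rrbp1 had 1227 ± 114 in tumours, against 553 ± 41.7 in non-tumour tissue (SD, n = 3 each), and Uggt1 had 116 ± 7.87 in tumours, against 67.6 ± 8.44 in non-tumour tissue. Iars encodes the cytosolic isoleucyl-tRNA synthetase and Hgfac the activator of hepatocyte growth factor, which hepatocytes secrete. Pkhd1 was dim, at 6.6 to 21.1 and so below the median listed probe on every array, and Cacna1e was near it (19.7 to 29.2). Their log2 fold changes in tumour over non-tumour tissue were 0.30 and 0.15. These correlations describe arrays that share their groups and carry no test.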

How the data were processed

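Total RNA was measured on 8 arrays of 1 colour. The deposited normalised intensities could be rebuilt from the scanner output by subtracting the average blank spot from each spot median and scaling each array to a median of 25 over its listed probes. Probes dim enough to be taken for blank carry no deposited value. Of 23473 probes, 81.8% to 88.5% were listed per array. The authors' scanner intensities (spot medians) were background-corrected with limma's normexp model, in which the 2736 blank spots served as controls and 50 was added as an offset, then quantile normalised and taken to log2. Gene symbols came from the platform annotation, checked against GRCm38.p6. A gene was tested where some group had it listed on each of its arrays (16800 of 19321) with limma 3.58.1 in R 4.3.3, with 3 group means over all 8 arrays, 2-sided, and Benjamini-Hochberg adjustment over all genes. The fit was tested on simulated data. Arrays of a group come from separate mice, their number limits the precision, and no scan or slide date was found in the files. Correlations of log2 values between arrays were 0.984 to 0.996 within groups and 0.919 to 0.983 between groups.

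The members and all lists were chosen with earlier results of these data known. Named genes were all members with all probes, up to 4 genes of each list by size of change among those past the threshold in a comparison, Ern1, Eif2ak3, Atf6, Atf4 and Ddit3, and the 10 genes most like the members' mean. Marker genes and promoter matches are named as found. Tumour and non-tumour tissue of a mouse number come from 1 liver per the labels. Their deviations from the group means correlated at 0.442, 0.148 and 0.167 in mice 117, 186 and 1, against -0.274 to 0.028 between mice. The fit with mouse number as a block is therefore given for each member whose call it changes, and for some of the lists. Alternatives were other background corrections, scaling, filters, offset, probe choice, fits and each array left out; the dimmer Dnajc3 probe was added after seeing the data.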

Additional observations from a re-analysis of the deposited data

How the results depend on the processing

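Tumour over non-tumour tissue gave 8 members and 4268 genes. With mouse number as a replicate block it gave 8 members and 3495 genes, where Dnajc3 took the place of Dnajb11. Leaving out 1 array gave 6 to 8 members and 3118 to 4191 genes, and the deposited values gave 5 members. Normexp with the local background gave 1 member, Hspa5, and 126 genes, 75.4% of them higher against 47.1%; this background rose with the spot it surrounds (rank correlation 0.902 to 0.960) and was 39.3% to 61.9% of it in spots above 1000. Tumour over normal diet liver gave 6 members and 4679 genes, 46.2% higher, against 1 member (Hspa5) and 220 genes (59.5% higher) with the local background and 2 members with deposited values (31.5% of genes higher), and leaving out 1 array gave 4 to 6 members and 2316 (without normal diet 117) to 4439 genes, with 2479 without normal diet 120. Non-tumour over normal diet liver gave 0 members under every alternative and 644 genes (47.2% higher), against 3 with the local background, 1403 (77.3% higher) with scaling to the median, and 61.1% higher with the blank mean subtracted. Leaving out 1 array gave 95 to 781 genes, with 95 and 129 without normal diet 120 and 117, and 256, 257 and 372 without non-tumour 117, 186 and 1. Reversals of members fell mostly in that comparison. With the local background Dnajb9 was 0.143, Dnajc3 -0.188, Dnajb11 -0.0591 and Pdia6 -0.165; with scaling Hspa5 was 0.018, Hsp90b1 0.120, Dnajb9 0.0816 and Calr 0.0426; with deposited values Dnajc3 was -0.0484, Dnajb11 -0.0761, Pdia4 -0.140 and Pdia6 -0.0454; the dimmer Dnajc3 probe gave -0.0055 (log2 fold changes). Leaving out 1 array gave -0.29 to 0.0928 for Hsp90b1, -0.31 to 0.0079 for Calr, -0.36 to 0.14 for Dnajb9, -0.0881 to 0.24 for Dnajc3, -0.11 to 0.15 for Pdia4 and -0.0375 to 0.18 for Dnajb11. In tumours over non-tumour tissue Dnajc3 was -0.0407 with the local background, and over normal diet liver it was -0.23 with it and Calr was -0.0557 with deposited values. Beyond what these alternatives change by construction, the cause was not tested. Hyou1 was dim, below the median listed probe on every array, and its log2 fold changes are compressed by the offset.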
